A study of Mus musculus with 4 samples.

Results

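The gene Tm4sf1, which encodes a small cell-surface protein with 4 membrane-spanning segments, was examined together with 8 tetraspanin genes (Cd151, Cd9, Cd63, Cd81, Cd82, Tspan2, Tspan4 and Tspan9) in mouse podocytes. The 9 genes were found by their names in the deposited count table, and all 9 were among its 54532 genes. Tm4sf1 was chosen by its rise after IL-12 in these same libraries (log2 fold change), so that rise is described here without a test. The 8 tetraspanins were listed as its relatives, with earlier results of these data known. The podocytes were MPC5 cells, a conditionally immortalized mouse line that grows with interferon-γ at a lowered temperature and differentiates when both are taken away. Podocytes exposed over 6 h to IL-12 at 400 ng/ml gave 2 libraries (the IL-12 group), and podocytes given saline gave the other 2 (the control group). Separate cultures are not stated for the libraries of either group, so p-values measure the spread between these libraries, which may be technical. The comparison asks how IL-12, a cytokine of type 1 immune responses that the study examined in minimal change disease, changes podocyte gene expression.

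Tetraspanins are membrane proteins that bind each other and their partners sideways in the membrane, and in this way group integrins, growth factor precursors, proteases and immunoglobulin-like proteins into patches. Cd151 holds laminin-binding integrins, such as the α3β1 integrin by which podocytes grip the glomerular basement membrane, and loss of Cd151 in mice gives kidney disease. Cd9 and Cd81 are close relatives with shared partners, Cd63 shuttles between lysosomes and the surface, Cd82 restrains cell movement, and Tspan4 marks the migrasomes that moving cells leave behind. Tm4sf1 belongs to the smaller L6 family, which looks like the tetraspanins in outline but is a separate family, and it is best known from endothelial and tumour cells.

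A sequence motif of the tetraspanins is shown first, because membership in the family was not read from expression. Tetraspanins carry a Cys-Cys-Gly motif in their large outer loop. It was searched in frame as the codons TGT or TGC, again TGT or TGC, and then GGN, in the longest complete coding sequence of each gene in GENCODE M21. All 31 tetraspanins held it, against 2.62% of 21526 coding genes. In the lines below, capitals mark these 3 codons, and 9 bases are given on either side. Cd9, Cd63, Cd81 and Tspan2 held the motif 2 times, and the copy shown was picked after the positions were seen, as the one placed most like the single copy of the other genes.
Cd151, from codon 155 of 253: gagttccacTGTTGTGGCagcaacaac
Cd9, from codon 150 of 226: gcgttggacTGCTGTGGCatagctggt
Cd63, from codon 145 of 238: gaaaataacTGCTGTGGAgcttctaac
Cd81, from codon 156 of 236: acgctcaacTGTTGTGGCtccaacgca
Cd82, from codon 149 of 266: caggtcaagTGCTGTGGCtgggtcagc
Tspan2, from codon 151 of 221: gcatttcagTGCTGTGGAaaagaaagc
Tspan4, from codon 147 of 238: gatttccgaTGCTGTGGAgtttccaat
Tspan9, from codon 147 of 239: gagatgcggTGTTGTGGGgtcactgac

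The 4 genes with a single copy, Cd151, Cd82, Tspan4 and Tspan9, held it from codon 147 to codon 155. The copies not shown start at codon 76 in Cd9, 72 in Cd63, 77 in Tspan2 and 227 in Cd81. The 202 codons of Tm4sf1 held the motif 2 times in a row, from codons 75 and 78, and nowhere else, which is shown next with both copies in capitals and 3 bases after them.
Tm4sf1, from codon 75 of 202: gaagaggacTGCTGTGGTTGCTGCGGCtac

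Of the other L6 genes, Tm4sf4 and Tm4sf5 also held the motif, and Tm4sf19 and Tm4sf20 did not. With 3 of 5 L6 genes holding it, the motif by itself does not set the families apart.

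The total counts were between 18355379 and 20098012 per library. Levels are given as CPM (counts scaled to a common library size by the TMM method) or, between genes, as RPKM (the same per kilobase of gene length). A log2 fold change is IL-12 over control and is given ± its standard error (SE). A gene with 3 counts in a library stood at 0.152 to 0.166 CPM, taken as the floor, which covers counting error only. The podocyte label was checked against 12 markers. Actn4, Synpo, Kirrel, Cd2ap and Podxl were among those that passed the filter on low counts. The defining slit diaphragm gene Nphs1 was near absent, with 0 to 1 counts per library, Wt1 had 4 to 16 counts, and Ptpro and Tcf21 had 0 in every library. The summed level of the podocyte list was 2843 to 2852 CPM in control libraries and 2799 to 2818 CPM in IL-12 libraries. Of the markers of other cells, 0 of 8 endothelial, 2 of 6 mesangial and mural, 3 of 6 proximal tubule and 1 of 7 leukocyte genes passed the filter. The summed proximal tubule list was at 726 to 751 CPM in controls and at 559 to 604 CPM after IL-12. Most of it came from Lrp2, with control and IL-12 means of 646 and 537 CPM, and Aqp1, with 90.9 and 41.9 CPM. The leukocyte list, most of it Csf1r, was at 21.9 to 23.2 CPM in controls and at 11.4 to 13.8 CPM after IL-12. The podocyte gene Synpo fell as well, with a log2 fold change of -0.66 (edgeR adjusted p = 3.00e-11). The part of these shifts in the results below was not tested. Because these are bulk libraries, more cells that express a gene and more RNA per cell cannot be told apart.

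Tm4sf1 more than doubled. Controls had 1892 and 1779 counts and IL-12 libraries 4727 and 4211, or 99.9 and 94.3 CPM against 239 and 233 CPM. Both IL-12 libraries lay far above both control libraries, and the libraries of a group lay close together. The group means ± SD were 97.1 ± 3.97 and 236 ± 4.37 CPM (n = 2 each), with a log2 fold change of 1.28 ± 0.04 or 2.43-fold, which was at place 93 of 14095 genes tested when they were ordered from the highest log2 fold change down. As the gene was picked for this rise, no test is given. Over 13 alternative ways to process the counts, its log2 fold change stayed between 1.24 and 1.33. Tm4sf1 (ENSMUSG00000027800) lies on the minus strand of chromosome 3 of GRCm38 from 57285611 to 57301988 and overlaps no other annotated gene. Measured against the 8 tetraspanins in the same library, there were 55.7 and 52.9 Tm4sf1 counts per 1000 tetraspanin counts in controls, and 129.6 and 131.6 after IL-12. The 8 tetraspanins summed were at 1793 and 1781 CPM in controls and at 1843 and 1769 CPM after IL-12, so that the ranges of their sum overlapped. The 8 endothelial markers had a summed level of 0.583 to 0.792 CPM in control libraries and 0.387 to 0.607 CPM in IL-12 libraries, with Tie1 and Emcn at 0 counts throughout.

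**Figure D1:**
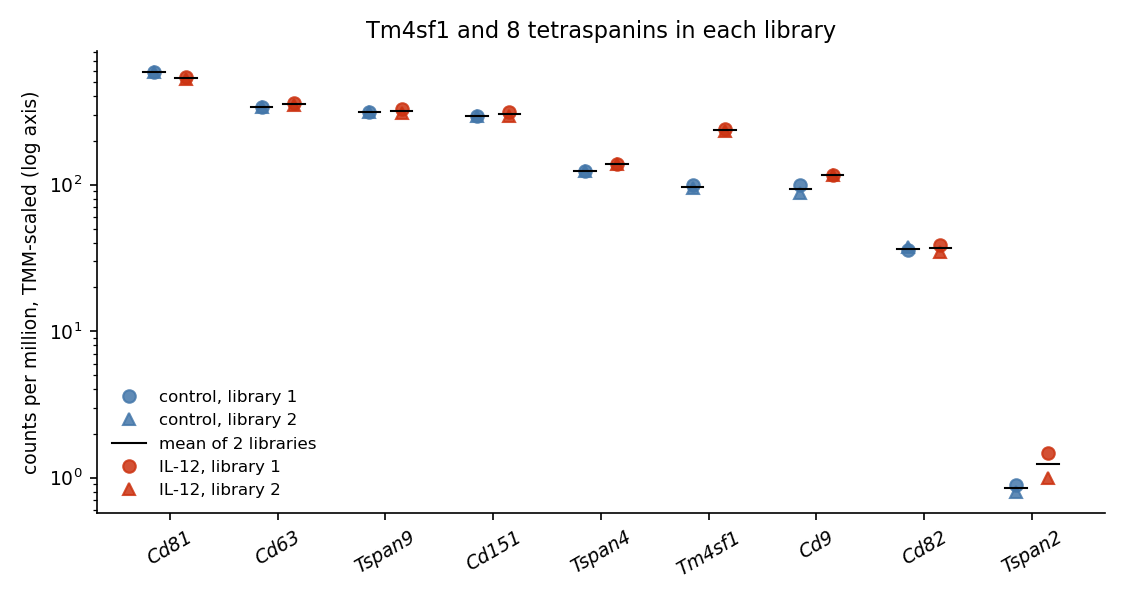
Level of each of the 9 genes in each library, in TMM-scaled CPM on a log axis, with control libraries in blue, IL-12 libraries in red and a bar at the mean of 2 libraries. Tm4sf1 moves from 94.3 to 99.9 CPM in the control libraries to 233 to 239 CPM in the IL-12 libraries, while the points of most tetraspanins lie almost level.

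Among the 8 tetraspanins, 3 passed an adjusted p of 0.05 by edgeR's quasi-likelihood test, namely Cd9 and Tspan4, which rose, and Cd81, which fell. At this threshold 30.5% of all genes tested were called (16.1% higher and 14.4% lower), so 3 of 8 is near the background. None of the 3 moved by more than 1.24-fold, whereas 1.61% of genes tested were past both 2-fold and an adjusted p of 0.05 (0.858% higher and 0.752% lower). In 6 of the 8 the libraries of the groups did not overlap, 5 with IL-12 above and 1 with IL-12 below. Among all genes tested this held for 62.9% (31.7% above and 31.2% below). The median log2 fold change of the 8 was 0.065, beside -0.0022 for all genes tested.

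Cd9, which steadies the heparin-binding EGF precursor and integrins at the surface, rose. It was measured at 98.9 and 88.3 CPM in controls and at 117 and 116 CPM after IL-12. The control libraries differed from each other more than the IL-12 libraries did, but the groups did not overlap. The group means ± SD were 93.6 ± 7.49 and 116 ± 0.192 CPM (n = 2 each), with a log2 fold change of 0.31 ± 0.05 (edgeR adjusted p = 0.000129). Cd9 (ENSMUSG00000030342, minus strand of chromosome 6 from 125460266 to 125494791) shares 218 exonic bases with the opposite-strand gene Gm26728, which had 3 counts in all.

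Cd81, the most abundant of the 9 genes and a co-receptor partner in B cells and hepatocytes, fell. Its values were 589 and 584 CPM in controls and 541 and 522 CPM after IL-12. Both IL-12 libraries were below both control libraries, and the gap between the groups was larger than the spread within either. The group means ± SD were 587 ± 3.60 and 531 ± 13.6 CPM (n = 2 each), with a log2 fold change of -0.14 ± 0.03 (edgeR adjusted p = 0.000989). Cd9 and Cd81, which share partners, passed with opposite signs. Cd81 (ENSMUSG00000037706) lies on the plus strand of chromosome 7 from 143052739 to 143067934, and 104 of its exonic bases are shared with R74862 on the opposite strand, which had 644 counts against 42330 for Cd81.

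Tspan4, the migrasome tetraspanin, was at 123 and 125 CPM in controls and at 139 and 139 CPM after IL-12. The libraries of each group were almost equal, and the groups did not overlap. The group means ± SD were 124 ± 1.08 and 139 ± 0.138 CPM (n = 2 each), with a log2 fold change of 0.17 ± 0.04 (edgeR adjusted p = 0.00479). Tspan4 (ENSMUSG00000025511, plus strand of chromosome 7 from 141475240 to 141493427) shares 292 of its 2178 exonic bases, or 13.4%, with Chid1 on the opposite strand. Whether reads were counted by strand is not given in the sources used here, so the value is uncertain by what Chid1 reads could add. Chid1 had 4037 counts against 9957 for Tspan4, and its own log2 fold change was 0.04 ± 0.06.

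The other tetraspanins did not pass the test. Cd151, the integrin holder, was at 293 and 294 CPM in controls and at 315 and 296 CPM after IL-12. The first IL-12 library was the higher, while the second lay just above the controls. The log2 fold change was 0.06 with a 95% interval of -0.014 to 0.14 (edgeR adjusted p = 0.225). Cd63, the lysosomal tetraspanin, had 339 and 339 CPM in controls and 362 and 349 CPM after IL-12. Its groups did not overlap, and its interval for the log2 fold change was 0.0025 to 0.14, but the adjusted p over all genes tested was 0.113. Cd151 (ENSMUSG00000025510) lies on chromosome 7 from 141467392 to 141471473 and Cd63 (ENSMUSG00000025351) on chromosome 10 from 128900989 to 128912822, both on the plus strand. Cd151 shares 193 exonic bases with Gm10575 on the opposite strand, which had 554 counts against 22691 for Cd151.

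Tspan9, a tetraspanin known from platelets, was at 313 and 312 CPM in controls and at 329 and 310.3 CPM after IL-12, so that the groups overlapped. Its log2 fold change was 0.03 with a 95% interval of -0.041 to 0.10 (adjusted p = 0.552), and the sign turned when libraries were scaled by total counts only or when the first IL-12 library was left out. Cd82, the restrainer of cell movement, had 35.8 and 37.4 CPM in controls and 38.9 and 34.9 CPM after IL-12. The control values lay inside the range of the IL-12 values. Its log2 fold change was 0.013 with a 95% interval of -0.14 to 0.16 (adjusted p = 0.923), and its sign turned in 4 of the 13 alternatives. Tspan9 (ENSMUSG00000030352) lies on chromosome 6 from 127961396 to 128143594 and Cd82 (ENSMUSG00000027215) on chromosome 2 from 93419111 to 93463140, both on the minus strand.

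Tspan2, known from oligodendrocytes and smooth muscle, was close to the limit of detection. It had 17 and 15 counts in controls and 29 and 18 counts after IL-12. The groups did not overlap, but the second IL-12 library was 1 count above the higher control library before scaling. The fitted log2 fold change of 0.55 had a 95% interval of -0.27 to 1.36 (adjusted p = 0.328), which holds no change, a small fall and a rise beyond 2-fold. Tspan2 (ENSMUSG00000027858) lies on the plus strand of chromosome 3 from 102734529 to 102801513.

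Per kilobase of gene length, the order of levels in the control group was Cd81, Cd151, Cd63, Tspan9, Tspan4, Cd9, Tm4sf1, Cd82 and Tspan2. Cd81 stood at 203.8 ± 1.25 RPKM (SD, n = 2), 1.90-fold above Cd151 at 107 ± 0.408 RPKM (SD, n = 2). Every gene was apart from its neighbour in this order in both control libraries, the narrowest step being the 1.10-fold between Tspan9 and Tspan4. Tm4sf1 was at 23.3 ± 0.953 RPKM (SD, n = 2), and Cd9, its upper neighbour, was 1.96-fold above it. In the IL-12 group the order by means was the same, but Tm4sf1 at 56.7 ± 1.05 RPKM (SD, n = 2) no longer differed beyond the spread from Cd9 at 56.9 ± 0.0941 RPKM (SD, n = 2). Tspan9 at 64.2 ± 2.61 RPKM (SD, n = 2) and Tspan4 at 63.9 ± 0.0634 RPKM (SD, n = 2) overlapped as well. Below them, the step from Tm4sf1 to Cd82 widened from 1.91-fold to 4.62-fold. Tspan2 stayed last, at 0.178 ± 0.0153 RPKM (SD, n = 2) and 0.259 ± 0.0700 RPKM (SD, n = 2).

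**Figure D2:**
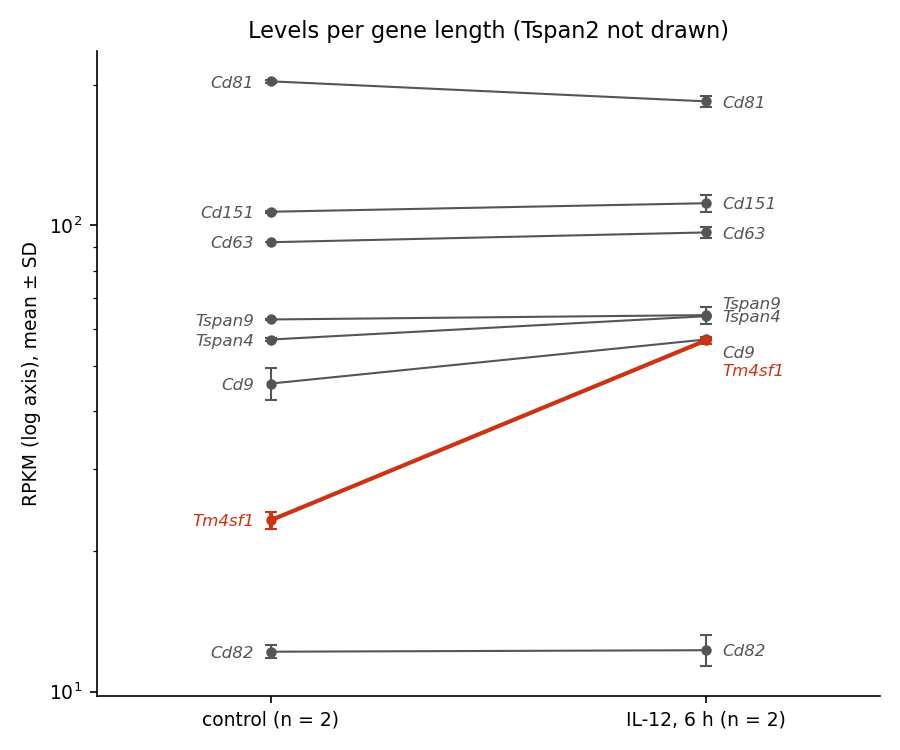
Mean level of 8 of the 9 genes in RPKM (log axis) in the control group and in the IL-12 group, with bars for the SD of 2 libraries and Tm4sf1 in red. Tm4sf1 climbs from 23.3 to 56.7 RPKM and meets Cd9 at 56.9 RPKM, and Tspan2, at 0.178 and 0.259 RPKM, is left off the axis.

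Several of these genes lie beside a relative in the genome, which the choice of genes did not use. Cd151 and Tspan4 are 3.77 kb apart on chromosome 7, in the same direction, with 1 gene between them. Of this pair, Tspan4 passed the test and Cd151 did not, and the difference between their changes was not tested. Cd81 has Tspan32, a tetraspanin of blood cells, 33.1 kb away on the same chromosome, with 5 to 10 counts per library. Tspan9 and Tspan11 are 7.42 kb apart on chromosome 6, and Tspan11 had 1 count over the 4 libraries. Tm4sf1 has its L6 relative Tm4sf4 123 kb away on chromosome 3, with 0 to 4 counts per library, against 1779 to 4727 for Tm4sf1. Cd82 and Tspan18 are 84.6 kb apart on chromosome 2. Tspan18 had 14.3 and 16.4 CPM in controls and 10.9 and 11.5 CPM after IL-12. It fell by 0.45 on the log2 scale (SE 0.11, edgeR adjusted p = 0.00468), and the adjusted p rose as far as 0.0829 when the second control or the first IL-12 library was left out. The call was also lost with limma on the deposited FPKM values, and over the 13 alternatives the log2 fold change ran from -0.55 to -0.28.

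The families as a whole give the setting. Of 31 tetraspanins listed by name, 21 passed the filter on low counts. Of these, 2 rose (16.1% of all genes tested did) and 5 fell (14.4% of all genes tested did), and the median log2 fold change was 0.0014. Both that rose, Cd9 and Tspan4, have been described. Besides Cd81 and Tspan18, the tetraspanins that fell were Tspan5, Tspan3 and Tspan14. Tspan5, which guides the sheddase ADAM10, had 163 and 154 CPM in controls and 108 and 106 CPM after IL-12. The groups lay well apart, and its log2 fold change was -0.57 ± 0.04 (edgeR adjusted p = 1.37e-08), the largest fall by fold among the 7 tetraspanins that passed. Tspan14, a further ADAM10 guide, had 44.3 and 43.0 CPM against 35.0 and 36.0 CPM, a log2 fold change of -0.30 ± 0.06. Tspan3 had 240.2 and 234 CPM against 208 and 210.0 CPM, a log2 fold change of -0.18 ± 0.04, a change close to that of Cd81. The values of Tspan31, with a log2 fold change of 0.0035, are uncertain, because it shares 641 exonic bases with Cdk4 on the opposite strand, which had 37463 counts against 4341.

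Among the 10 tetraspanins that did not pass the filter, Tspan10 and Prph2 had 0 counts in every library, and Tspan1, Tspan8, Tspan11, Tspan12, Tspan13 and the leukocyte tetraspanins Cd37 and Cd53 had at most 7 counts in any library. In the L6 family, Tm4sf1 alone passed the filter. Tm4sf5 had 0 counts in every library, and Tm4sf4, Tm4sf19 and Tm4sf20 had 0 to 4.

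**Figure D3:**
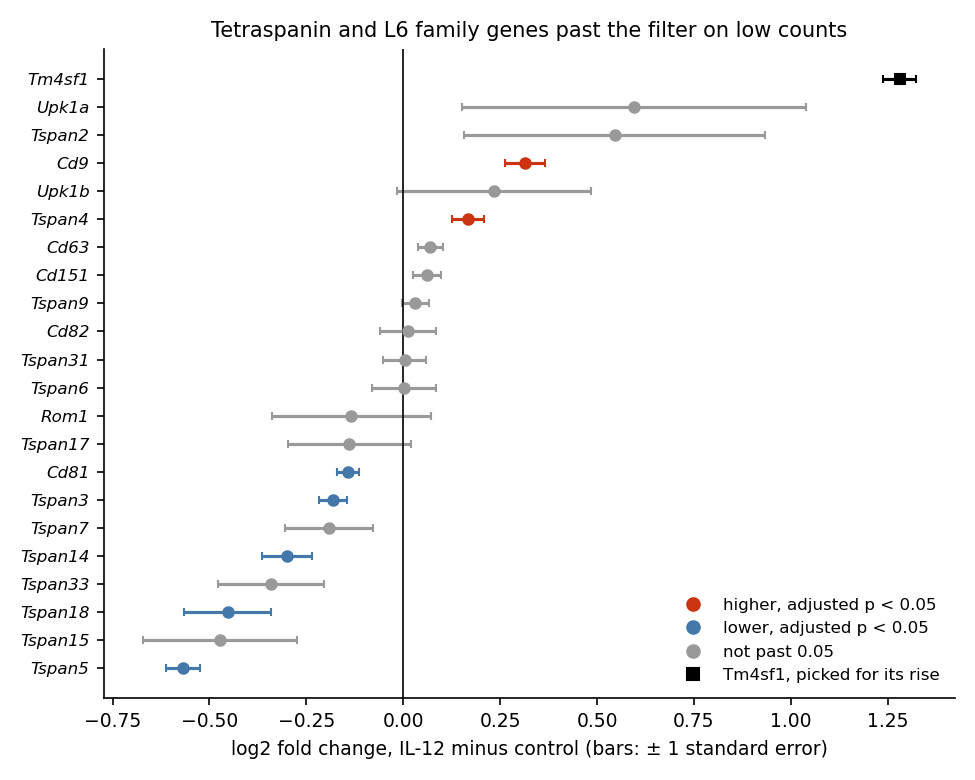
Log2 fold change (IL-12 minus control, bars ± 1 standard error) of the 22 tetraspanin and L6 genes that passed the filter, in red or blue where the adjusted p was below 0.05 and grey where it was not. The 7 tetraspanins that passed lie between -0.57 (Tspan5) and 0.31 (Cd9), and Tm4sf1, the black square picked for its rise, lies at 1.28.

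The partners that tetraspanins hold at the cell surface were then examined. Their list, chosen with earlier results of these data known, held 20 genes, of which 16 passed the filter. Of these, 5 rose (16.1% of all genes tested did) and 2 fell (14.4% did), with a median log2 fold change of 0.019. Of the 5 listed subunits of laminin-binding integrins, which Cd151 holds, 3 rose and 2 did not pass. Itgb1, the shared β1 subunit, had control and IL-12 means of 2196 ± 22.4 and 2928 ± 16.6 CPM (SD, n = 2 each), with a log2 fold change of 0.41 ± 0.02 (edgeR adjusted p = 9.98e-11). Itga3, the α3 subunit of podocytes, had control and IL-12 means of 1448 ± 37.3 and 1794 ± 39.2 CPM (SD, n = 2 each), with a log2 fold change of 0.31. Itga6 had a log2 fold change of 0.45 ± 0.04. Itga7 and Itgb4 did not pass, with log2 fold changes of -0.10 and 0.34 and standard errors of 0.06 and 0.46.

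Hbegf, the growth factor precursor that Cd9 steadies, had 83.1 and 82.2 CPM in controls and 124 and 125 CPM after IL-12. It rose, with a log2 fold change of 0.59 ± 0.05 (edgeR adjusted p = 1.33e-08). Cd44, the hyaluronan receptor, was the partner past 2-fold, at 175.6 ± 2.11 CPM and 365 ± 0.972 CPM (SD, n = 2 each). By contrast, the immunoglobulin-like proteins that bind Cd9 and Cd81 most directly did not pass the test. Ptgfrn had a log2 fold change of 0.0017 with a 95% interval of -0.078 to 0.081, and Igsf8 one of -0.07 with an interval of -0.20 to 0.049. Adam10 did not pass either, at 221 ± 0.384 CPM and 218 ± 3.15 CPM (SD, n = 2 each). The partners that fell were F11r, a junction protein, with a log2 fold change of -0.30 ± 0.05, and Adam17, a sheddase, with -0.14 ± 0.05. The call of Adam17 was lost when any single library was left out, with adjusted p up to 0.201, and Adam17 shares 311 exonic bases with Iah1 on the opposite strand.

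A list of 18 partners of Cd63 and of vesicle and lysosome membranes was also chosen with earlier results of these data known. Of its genes, 16 passed the filter. Here 1 rose and 7 fell, beside the 16.1% higher and 14.4% lower among all genes tested, with a median log2 fold change of -0.046. Timp1, a protease inhibitor that binds Cd63 at the surface, had 31.1 and 31.7 CPM in controls and 53.6 and 57.4 CPM after IL-12. It rose 1.77-fold, with a log2 fold change of 0.82 ± 0.06 (edgeR adjusted p = 1.64e-08). Sdcbp, the adaptor syntenin that binds the tail of Cd63, was at 206 ± 4.80 CPM and 210.1 ± 6.21 CPM (SD, n = 2 each) and did not pass. Those that fell were Flot1 and Flot2 (flotillins), Lamp2 and Lamp1 (lysosome membrane glycoproteins), and Ap3d1, Pdcd6ip and Ap2m1, which sort membrane cargo. Flot1 had the largest of these falls, with a log2 fold change of -0.48 ± 0.07, and the others lay between -0.19 and -0.086. The calls of Flot1 and Lamp2 held in all 13 alternatives. With single libraries left out, Flot2 lost its call without the second IL-12 library (adjusted p = 0.0565), Lamp1 without the second control or the second IL-12 library (up to 0.0738), and Ap3d1 without the second control or the first IL-12 library (up to 0.103). Pdcd6ip lost its call without the first control library or either IL-12 library (up to 0.218), and Ap2m1 without any single library (up to 0.144). Lamp1 shares 249 exonic bases with Grtp1 on the opposite strand, which had 492 counts. Hgs was listed at 0 to 1 counts. A second gene of the same name covers 97.2% of its 2980 exonic bases, so the counts for Hgs cannot be read as its level.

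**Figure D4:**
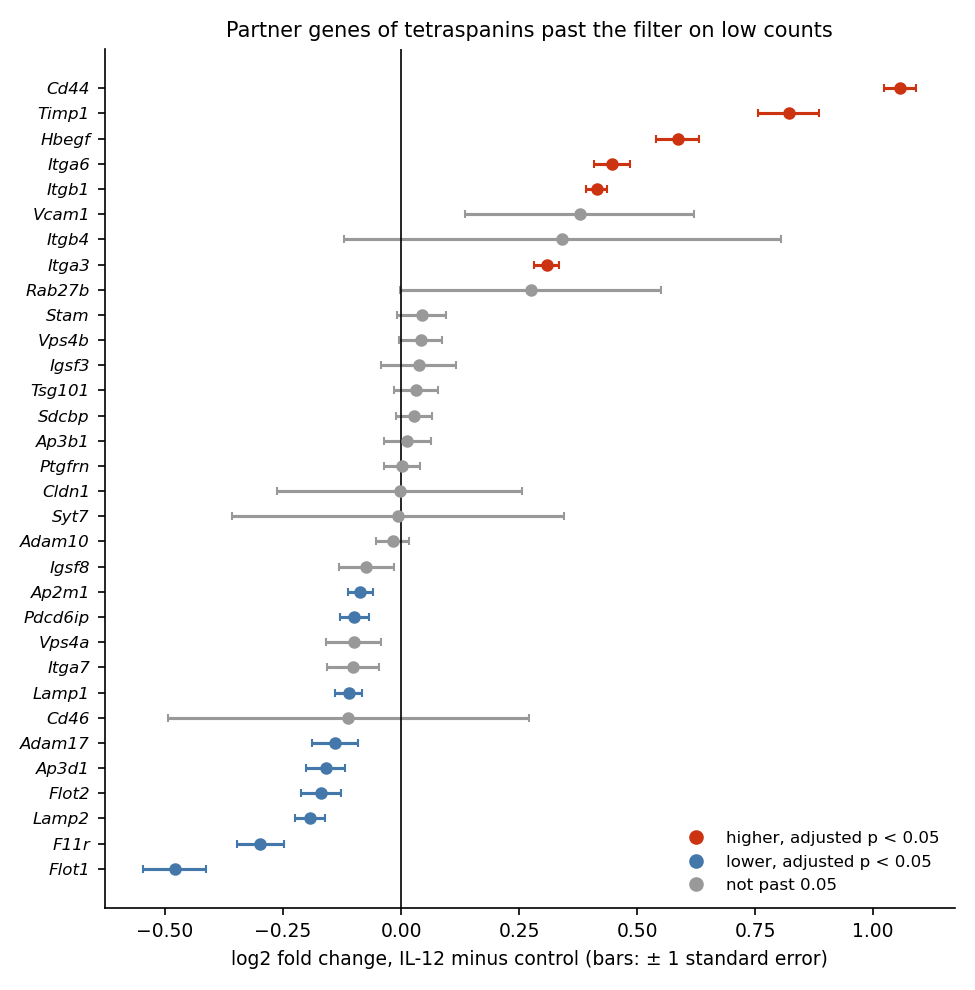
Log2 fold change (IL-12 minus control, bars ± 1 standard error) of the 32 partner genes that passed the filter, coloured as higher, lower or not past an adjusted p of 0.05. Cd44 at 1.06, Timp1 at 0.82 and Hbegf at 0.59 head the list, the 3 integrin subunits that rose lie between 0.31 and 0.45, and Flot1 at -0.48 is at the foot.

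Finally, the genes whose pattern over the 4 libraries was most like that of Tm4sf1 were listed. Likeness was the Euclidean distance between log2 levels centred on each gene's mean, among 9100 genes of at least 10 CPM on average over the 4 libraries. Flt1 and Mmp9, named next, were below this level in the control group (6.66 and 5.69 CPM) and entered through the IL-12 group (17.9 and 15.4 CPM). The nearest were Sorcs2, a sorting receptor (distance 0.103), Spp1, the matrix protein osteopontin (0.153), Flt1, a VEGF receptor (0.167), Mmp9, a matrix protease (0.168), and Il1rl1, the IL-33 receptor (0.178). Sorcs2 had 66.8 and 67.0 CPM in controls and 155 and 153 CPM after IL-12. Its log2 fold change was 1.20, beside 1.28 for Tm4sf1. With 4 libraries and 1 contrast, the distance mostly measures how close the sizes of the changes are, and it is given as a description.

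**Figure D5:**
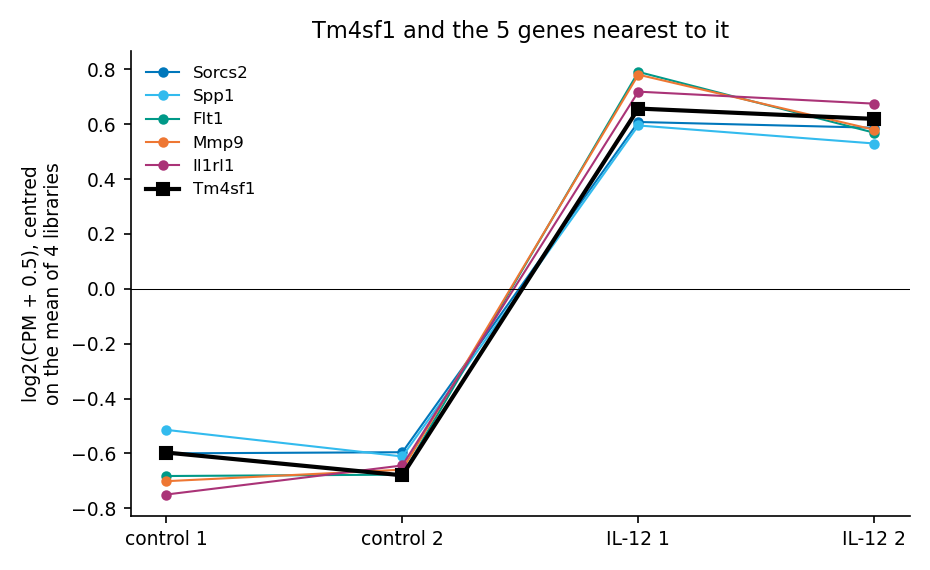
Level of Tm4sf1 (black squares) and the 5 nearest genes in each library, as log2(CPM + 0.5) centred on the mean of the 4 libraries; the lines join the points of a gene and show no time course. The 5 genes were chosen for this likeness, so for all of them, as for Tm4sf1, both control libraries lie below the mean and both IL-12 libraries above it.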

How the data were processed

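RNA was sequenced from MPC5 podocytes as 4 libraries. For each gene the authors deposited a raw count, a whole number without scaling, and an FPKM value. The deposited FPKM equals the count per kilobase and library size times 1 constant per library (0.985 to 1.02). The submitters' processing notes name HISAT2, StringTie and mm9, without roles. However, 98.3% of the gene coordinates equal those of GENCODE M21 (GRCm38), and coordinates are given in that build. How multi-mapping reads and strand were treated is not given in the sources used here.

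Counts were analysed with R 4.3.3, edgeR 4.0.16, limma 3.58.1 and DESeq2 1.42.0. The filterByExpr function (minimum 10 counts, 15 in total) kept 14095 genes, scaled by TMM. IL-12 was compared with control by the quasi-likelihood test of edgeR, which was first tested on simulated data, and p-values were adjusted over these genes (Benjamini-Hochberg). A gene passed at an adjusted p below 0.05, and the study's criteria add 2-fold. Standard errors are the log2 fold change over the square root of F. With 2 against 2 libraries an exact permutation test cannot go below 0.333.

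The members and lists were chosen with earlier results of these data known. Named genes were the 9 members, the listed family and partner genes past the threshold (up to 12 per list), 8 partners fixed by name, and the 5 genes nearest to Tm4sf1 among named genes of at least 10 CPM that are no pseudogenes. The lists covered tetraspanins, L6 genes, 2 kinds of partner and markers of podocytes, endothelium, mesangium, proximal tubule and leukocytes. Replicate numbers 1 and 2 are shared by the groups in the labels, without a statement that the libraries were paired, and the main fit had no block. Alternatives were other scalings, tests and filters, a replicate block, each library left out, and limma on log2(FPKM + 1). Matplotlib 3.10.9 drew the figures. Protein sequences were not used here. Some marker and overlapping genes are not reported here.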

Additional observations from a re-analysis of the deposited data

How the results depend on the processing

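Of the 8 tetraspanins, Cd9, Tspan4 and Cd81 kept their direction and an adjusted p below 0.05 in all 13 alternatives, and the other 5 passed in no alternative. The adjusted p ranged from 2.22e-08 to 0.0208 for Cd9, from 0.00436 to 0.0422 for Tspan4 and from 9.26e-05 to 0.0371 for Cd81. The sign of Cd82 turned with upper-quartile scaling (-0.0030) and with total counts only (-0.028), and without single libraries its log2 fold change ranged from -0.068 to 0.088. That of Tspan9 turned with total counts only (-0.0094) and ranged from -0.0098 to 0.073 without single libraries. The cause was not tested. Over all genes, 227 were past 2-fold and an adjusted p of 0.05, against 103 with the DESeq2 Wald test, 38 with log2(FPKM + 1) and limma, and 144 to 254 without single libraries, the lowest being without the first IL-12 library. A pseudocount of 1 lowers the fold change of genes at low FPKM. Among genes past the adjusted p, 52.8% were higher with TMM scaling and 40.5% when scaled by library totals. The replicate block gave 241 genes and 3 of the 8 tetraspanins, and it added Tspan15 (adjusted p = 0.0175) and Tspan33 (0.0139) to the family genes, which went from 8 to 10. With FPKM the family genes were 7, without Tspan18, and Adam17, Pdcd6ip, Ap3d1, Ap2m1 and Lamp1 were also not called. Same-numbered libraries did not deviate together across genes (correlation -0.027). With 2 libraries per group this value cannot exclude a shared culture or day, and whether they were paired is not stated. Of 32 partner genes tested, 15 were past the threshold, beside 30.5% of all genes, and 10 to 15 over the alternatives. With each group at 2 libraries, leaving out 1 assumes that the lone library varies like the other group. Levels near 3 counts, such as those of most L6 genes, cannot show a difference.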

Other observations

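A group of tetraspanins guides the sheddase ADAM10 through the secretory pathway and sets which substrates it meets. The group was listed after the values were seen, so it was not tested as a group. The adjusted p-values below are those of single genes in the fits over all genes, for genes listed with their values known. Of its 6 members, Tspan10 had 0 counts in every library and 5 passed the filter. Tspan5 and Tspan14 fell, as given above, and the fitted log2 fold changes of Tspan33, Tspan15 and Tspan17 were -0.34, -0.47 and -0.14, without passing the test (adjusted p = 0.0675, 0.0823 and 0.566 from edgeR). With the replicate number as a block, Tspan33 and Tspan15 passed, at adjusted p of 0.0139 and 0.0175. Tspan33 also passed when scaled by total counts only (edgeR adjusted p = 0.0405). Of the 13 alternatives, Tspan33 passed in only 3 and Tspan15 in only 2. Over the fits that left out 1 library, the log2 fold change ran from -0.63 to -0.11 for Tspan33 and from -0.79 to -0.069 for Tspan15. The summed level of the 6 genes was 241 and 224 CPM in the control libraries and 169 and 165 CPM in the IL-12 libraries, most of it from Tspan5. Adam10 itself, the protease of this group, was at 221 and 218 CPM.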
